A study of Mus musculus with 9 samples.

Results

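The genes described here encode 7 RNA-binding proteins that shorten the life of cytokine mRNAs in T cells: Zfp36, Zfp36l1 and Zfp36l2, the regnases Zc3h12a and Zc3h12d, and the roquins Rc3h1 and Rc3h2. They were taken by gene symbol from nascent RNA profiles of CD8+ (cytotoxic) T cells of the mouse. Of 37022 genes in the tables, 15942 were tested because their gene-body signal reached 50 in 3 or more libraries, and all 7 genes were among them. Each gene was represented by the annotated transcript whose gene-body signal had the highest mean over the 9 libraries.

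The study compared 3 groups of 3 libraries: acute stimulation (labelled Acute), chronic stimulation (Chronic), and chronic stimulation with inhibition of MEK, the kinase that activates ERK (ChronicMEKi). All cells were given the uridine analogue 5-ethynyl uridine at 0.2 mM for 30 minutes, so that RNA made in that time could be captured on beads and sequenced. The labels give no strain, genotype or age, and they name neither the inhibitor nor the length and manner of stimulation. They do not say whether the 3 libraries of a group came from separate animals or cultures, so p-values measure only the spread between these libraries, which may be technical. The captured RNA reports how much of a transcript was newly made. It does not measure the amount of mRNA or protein, nor the activity of these proteins on their targets.

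The 3 Zfp36 proteins bind AU-rich elements in the 3′ ends of mRNAs through a pair of CCCH zinc fingers and recruit the CCR4-NOT complex, which removes the poly(A) tail. The regnases are endonucleases that cut mRNAs at stem-loops, and the roquins bind related stem-loops and also recruit deadenylases. In T cells these proteins are known to restrain cytokine output and activation, and T cell receptor signals are known to switch several of them off, among other ways through cleavage of regnase-1 and roquins by the protease MALT1.

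The tables held signal per transcript, 1 for a region read here as the gene body and 1 for a region near the start read here as the pause region. The unit of this signal was arbitrary, and depth in reads is unknown. Gene-body signal summed to between 48601757 and 52216192 per library. Ribosomal RNA-like rows took 19.1% to 40.6% of it, with 19.1% to 22.3% in acute, 34.2% to 40.6% in chronic and 29.0% to 36.1% in MEK-inhibited libraries. Libraries were therefore scaled by a trimmed mean of log ratios over genes, and each change below is relative to the bulk of genes. Scaling by library totals instead lowered the median gene by 0.48 (log2) in chronic against acute libraries, by 0.38 in MEK-inhibited against acute ones, and raised it by 0.10 in MEK-inhibited against chronic ones. T cell markers were present in every library, with a summed signal over 5 of 5 genes of 11900 to 13100 in acute, 7340 to 8010 in chronic and 10300 to 12000 in MEK-inhibited libraries. Of these, Cd8a, which encodes the CD8 alpha chain, had a mean signal of 4060 in acute, 968 in chronic and 2880 in MEK-inhibited libraries. In the same order Cd8b1 was at 1870, 1230 and 2040, Cd3e at 3730, 2630 and 3430, Cd3d at 1270, 1240 and 1400, and Cd3g at 1500, 1590 and 1530. In bulk samples such as these, fewer cells of a type and less RNA per cell cannot be told apart. The MEK label was checked on 11 genes known to respond to ERK: in MEK-inhibited against chronic libraries 8 fell and 0 rose by limma, the same counts as at an unadjusted p under 0.05. Of all genes tested, 7.65% fell and 9.93% rose in that comparison. Etv5, a transcription factor gene downstream of ERK, fell by 3.80 on the log2 scale. Dusp6, an ERK phosphatase induced by ERK itself, stood at 2395 ± 89.2 (SD, n = 3) in chronic and 204 ± 9.69 in MEK-inhibited libraries.

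The genes lie on 7 chromosomes of mouse build GRCm38 (mm10). Zfp36 (ENSMUSG00000044786.6) is at chr7:28376784-28380253, Zfp36l1 (ENSMUSG00000021127.7) at chr12:80107754-80113013 and Zfp36l2 (ENSMUSG00000045817.8) at chr17:84183931-84187947, all on the minus strand. Zc3h12a (ENSMUSG00000042677.7) is at chr4:125118423-125127840 on the minus strand and Zc3h12d (ENSMUSG00000039981.6) at chr10:7832470-7870396 on the plus strand. Rc3h1 (ENSMUSG00000040423.10) is at chr1:160906418-160974978 on the plus strand and Rc3h2 (ENSMUSG00000075376.10) at chr2:37370069-37422903 on the minus strand. The Zfp36 genes are compact, with 2 exons each, whereas the transcripts used for Rc3h1 and Rc3h2 have 20 and 22 exons. The use of strand in counting is not given in the sources used here, so reads from overlapping genes cannot be told apart. The antisense gene AC132455.1, which overlaps Zfp36l2, had a signal of 10800 in acute, 9060 in chronic and 10800 in MEK-inhibited libraries, in the same range as Zfp36l2, and Gm44710, opposite Zfp36, had 553, 601 and 630. The values of Zfp36l2 and Zfp36 are uncertain for this reason. Only Zc3h12a overlapped no annotated gene.

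Promoters of 6 of the 7 genes were found in RefSeq's table for GRCm38.p6 (250 bases before to 50 after the start). They were searched on both strands for binding motifs of factors downstream of T cell receptor and ERK signals: the serum response element, ETS (CCGGAA), AP-1 (TGANTCA), the cyclic AMP response element (TGACGTCA), EGR (GCGTGGGCG) and NF-kB. The stretches below are shown because they hold the motifs found, in capitals, on the strand of the gene.
Zfp36, serum response element, chr7:28379267-28379296, minus strand: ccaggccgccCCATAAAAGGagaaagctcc
Zfp36l1, AP-1, chr12:80113116-80113162, minus strand: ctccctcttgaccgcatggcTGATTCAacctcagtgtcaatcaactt
Zc3h12a, ETS read on the opposite strand, chr4:125128074-125128119, minus strand: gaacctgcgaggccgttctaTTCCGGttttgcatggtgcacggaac
Rc3h1, AP-1, chr1:160906258-160906304, plus strand: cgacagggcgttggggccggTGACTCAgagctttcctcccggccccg
The serum response element of Zfp36 lies 58 to 49 bases upstream of its RefSeq start, with an ETS match 92 to 87 bases upstream. The AP-1 matches lie 129 to 123 bases upstream in Zfp36l1 and 133 to 127 bases upstream in Rc3h1, and the ETS match of Zc3h12a lies 218 to 213 bases upstream. None of the 6 motifs was in the windows of Zc3h12d and Rc3h2. Over 32851 promoter windows the serum response element was found in 1.63%, ETS in 14.9%, AP-1 in 7.81%, the cyclic AMP response element in 1.79%, EGR in 0.612% and NF-kB in 4.51%. No match overlapped another. A match describes the letters of the window and is not evidence of binding.

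Relative to the bulk of genes, the members moved in both directions between acute and chronic stimulation. Zfp36 and Zfp36l1 rose, Zc3h12a, Zc3h12d and Rc3h1 fell, and Zfp36l2 and Rc3h2 did not pass the test. This makes 5 of 7 genes (71.4%) called by limma at an adjusted p under 0.05, against 33.9% of all genes tested (18.0% higher and 15.9% lower in chronic). Under library totals 5 were called too, all of them falls. Zfp36 (0.16) and Zfp36l1 (0.05) were then not called, while Zfp36l2 (-0.44) and Rc3h2 (-0.61) were. The 3 libraries of each group did not overlap for 4 of the 7 genes, against 44.2% of all genes. The median change over the 7 genes was -0.12 (log2), beside -0.02 over all genes tested. The largest change was the fall of Zc3h12d, which was called under every scaling, filter and left-out library tried.

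**Figure D1:**
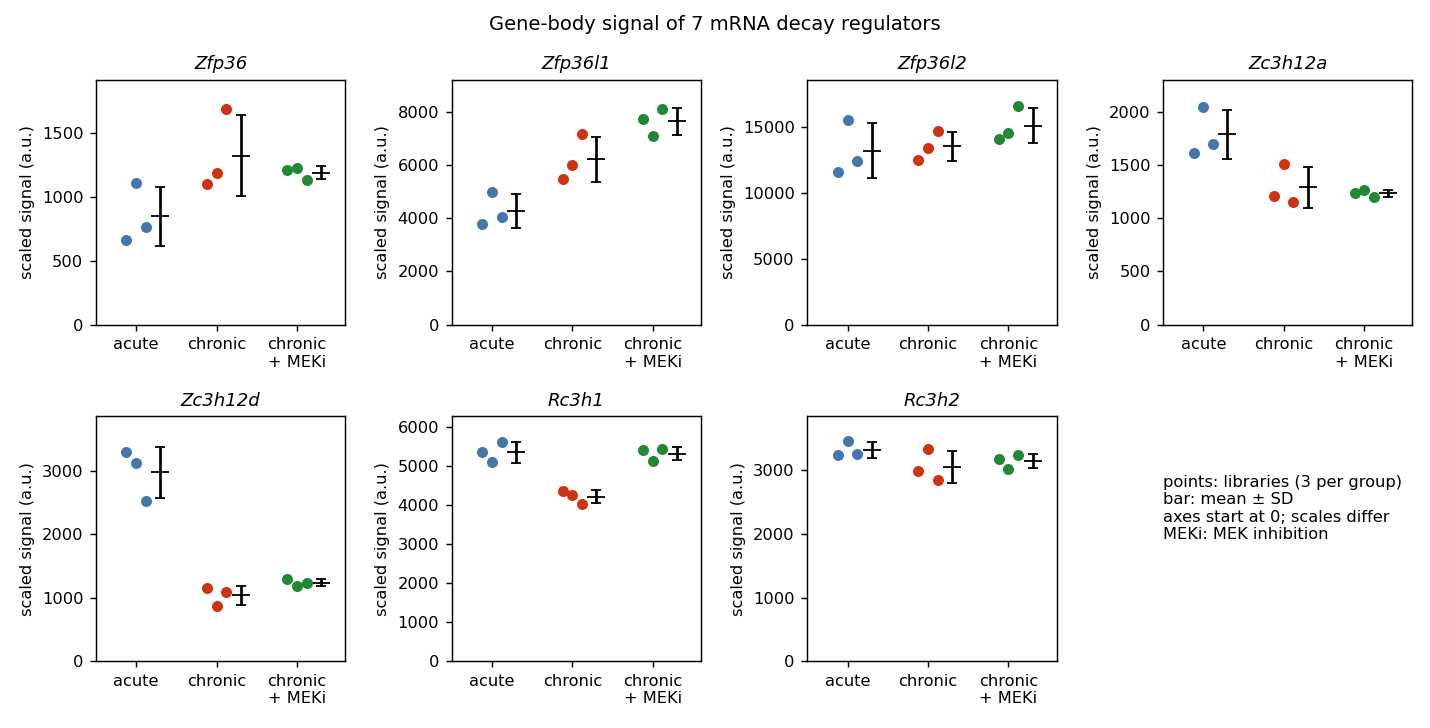
Scaled gene-body signal (arbitrary units, axes from 0) of the 7 genes in each library, with 3 libraries per group and the mean ± SD beside them. Zc3h12d was between 2526 and 3291 in acute libraries and no higher than 1292 in any other library. Rc3h1 was lower in all 3 chronic libraries than in the other 6.

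Among the AU-rich element binders, Zfp36l2 had the strongest signal in every group. Per kilobase of transcript span, it stood at 3280 ± 519 (SD, n = 3) in acute libraries, against 813 ± 122 for Zfp36l1 and 244 ± 67.5 for Zfp36. The deposited tables do not say whether introns were counted. Per kilobase of exon the order of these 3 genes was the same, at 3730, 1430 and 303. Of the other members, Zc3h12a followed per kilobase of span at 190.0 ± 24.1 in acute libraries, then Zc3h12d at 78.5 ± 10.6 and Rc3h1 at 78.1 ± 3.85, which did not differ beyond their spread, and Rc3h2 at 62.7 ± 2.39. In chronic libraries Zc3h12d was last, at 27.4 ± 3.99 against 57.7 ± 4.69 for Rc3h2. Per kilobase of exon Zc3h12d was above Zc3h12a in acute libraries, at 728 against 649. On that measure Zfp36, at 303, was below both, and also below Rc3h1 at 486 and Rc3h2 at 370. Its place among the members in acute libraries thus depended on the length used.

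Zfp36, which encodes tristetraprolin, the founding member of the family, had a scaled gene-body signal of 662, 1110 and 767 in acute libraries, 1098, 1183 and 1688 in chronic ones, and 1213, 1229 and 1128 in MEK-inhibited ones. The second acute library reached the level of the lowest chronic library, so those groups overlapped, while all MEK-inhibited libraries were above all acute ones. Zfp36 was 1.57-fold higher in chronic than in acute libraries (log2 change 0.65, SE 0.186, limma adjusted p = 0.0111). It was 1.44-fold higher in MEK-inhibited than in acute libraries (log2 change 0.52, adjusted p = 0.0466). Neither call was firm: under library totals the changes were 0.16 (adjusted p = 0.463) and 0.14 (adjusted p = 0.561). The first call was lost without the first acute library (adjusted p = 0.0738), the third acute library (0.0514) or the third chronic library (0.0647). Without the first acute library the change from acute to MEK-inhibited cells was 0.31 (adjusted p = 0.309).

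Zfp36l1 rose from acute to chronic libraries and was highest under MEK inhibition. Its signal was 3786, 5004 and 4044 in acute, 5471, 6013 and 7150 in chronic, and 7729, 7096 and 8090 in MEK-inhibited libraries. Every acute library was below every other library, and the highest chronic library was above the lowest MEK-inhibited one. Zfp36l1 was 1.45-fold higher in chronic than in acute libraries (log2 change 0.54, SE 0.115, adjusted p = 0.00125). Its difference between MEK-inhibited and acute libraries was 1.79-fold (log2 change 0.84, SE 0.115, adjusted p = 2.11e-05). The further difference between MEK-inhibited and chronic libraries, 0.30 (95% interval 0.06 to 0.55), missed the threshold (adjusted p = 0.0801) and passed it under library totals (0.41, adjusted p = 0.025). Scaling by library totals left 0.05 (adjusted p = 0.764) of the chronic change and 0.46 (adjusted p = 0.00541) of the change under MEK inhibition. With totals that leave out the ribosomal RNA-like rows, the chronic change was 0.38 and was still called. The rise in chronic cells was therefore one relative to other genes. No rise was called on the scale of the whole library with the ribosomal RNA-like rows included.

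Zfp36l2, first of the 7 genes per kilobase in every group, had a signal of 11551, 15511 and 12408 in acute, 12505, 13350 and 14684 in chronic, and 14085, 14508 and 16582 in MEK-inhibited libraries. The 3 groups overlapped. The change from acute to chronic libraries was 0.05 (95% interval -0.18 to 0.27, adjusted p = 0.77), and that from chronic to MEK-inhibited libraries was 0.16 (-0.07 to 0.38, adjusted p = 0.382). Under library totals the chronic change turned to -0.44 and was called (adjusted p = 0.00406).

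The regnases were lower in both chronically stimulated groups. Zc3h12a encodes regnase-1, which like the roquins is cleaved by MALT1 in activated T cells. Its signal was 1616, 2045 and 1702 in acute, 1206, 1513 and 1153 in chronic, and 1234, 1269 and 1198 in MEK-inhibited libraries. All acute libraries were above all others, with the chronic and MEK-inhibited ranges overlapping. Zc3h12a fell by 27.9% from acute to chronic libraries (log2 change -0.47, SE 0.133, adjusted p = 0.0101) and stood at 0.694 of the acute level in MEK-inhibited ones (log2 change -0.53, adjusted p = 0.00636). Without the second acute library the fall in chronic libraries was -0.36 (adjusted p = 0.0534). Its call was also lost with no filter on low values (-0.46, adjusted p = 0.0928) and with rows summed per gene (-0.42, adjusted p = 0.0831). The change from chronic to MEK-inhibited libraries was -0.06 (95% interval -0.34 to 0.22) and turned to 0.05 under library totals.

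Zc3h12d, which encodes regnase-4, had a signal of 3291, 3120 and 2526 in acute, 1152, 867 and 1098 in chronic, and 1292, 1193 and 1238 in MEK-inhibited libraries. The lowest acute library was well above the highest of the other 6, and the MEK-inhibited libraries lay just above the chronic ones with no overlap. The signal fell by 65.0% from acute to chronic libraries (log2 change -1.52, SE 0.134, adjusted p = 6.54e-08). In MEK-inhibited libraries it was at 0.42 of the acute level (log2 change -1.25, SE 0.134, adjusted p = 1.35e-06). The difference between MEK-inhibited and chronic libraries, 0.27 (95% interval -0.02 to 0.55), was not called (adjusted p = 0.206). B cell markers and Cd4 were also higher in acute libraries. The 3 B cell markers summed to 329 to 389 in acute, 68.8 to 156 in chronic and 73.9 to 210 in MEK-inhibited libraries, with Ms4a1 among those below the filter, and Cd4 was at 383 to 496, 144 to 344 and 101 to 141. T cell markers, summed above, were higher in acute than in chronic libraries too, while their acute and MEK-inhibited ranges overlapped. Myeloid markers leaned the same way with overlapping ranges, at 150.0 to 211 in acute, 98.0 to 152 in chronic and 84.1 to 181 in MEK-inhibited libraries. The sum of 3 dendritic markers did not share that order, at 22.9 to 93.8, 68.8 to 98.0 and 16.0 to 72.1. Of these only Flt3 passed the filter, and its mean was highest in acute libraries, at 45.9, 29.7 and 29.8. Below the filter, Xcr1 was at 6.46, 53.9 and 2.27 and Siglech at 5.76, 3.87 and 8.04. The 2 natural killer markers, both below the filter, summed to 7.87 to 19.2, 19.1 to 34.9 and 32.2 to 54.2, with acute and chronic ranges just overlapping. They went opposite ways: Klrb1c had means of 9.87, 24.1 and 40.6, and Ncr1 of 3.91, 1.96 and 0. Erythroid markers were at 0 in acute libraries and reached 3.38 in chronic and 21.2 in MEK-inhibited ones. Their part in the change of Zc3h12d and Zc3h12a was not tested.

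Of the roquins, only Rc3h1 was called in any comparison of gene-body signal under the main scaling. Rc3h1, which encodes roquin-1, had a signal of 5349, 5090 and 5618 in acute, 4362, 4256 and 4024 in chronic, and 5397, 5123 and 5433 in MEK-inhibited libraries. The chronic libraries were below all 6 others, and the acute and MEK-inhibited ranges overlapped. Rc3h1 fell by 21.2% from acute to chronic libraries (log2 change -0.34, SE 0.0856, adjusted p = 0.00419). It was 1.26-fold higher in MEK-inhibited than in chronic libraries (log2 change 0.34, SE 0.0856, adjusted p = 0.0096). These comparisons share the chronic libraries. Between MEK-inhibited and acute libraries the difference was -0.01 (95% interval -0.19 to 0.17), but under library totals it was -0.39 and called (adjusted p = 0.0213). The rise under MEK inhibition was lost without the first MEK-inhibited library (0.27, adjusted p = 0.102). It was also lost with rows summed per gene (0.29, adjusted p = 0.11) and with no filter on low values (0.27, adjusted p = 0.272). With no filter the call of the fall in chronic libraries was lost too (-0.34, adjusted p = 0.0633).

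Rc3h2, the paralogue that encodes roquin-2, had a signal of 3230, 3457 and 3246 in acute, 2977, 3322 and 2842 in chronic, and 3178, 3021 and 3230 in MEK-inhibited libraries. Acute and chronic libraries overlapped, and acute and MEK-inhibited ones met without overlapping. No comparison was called, with changes of -0.12 (95% interval -0.32 to 0.08), 0.05 (-0.15 to 0.25) and -0.07 (-0.27 to 0.12) in the order chronic against acute, inhibited against chronic, inhibited against acute. Under library totals the first of these was -0.61 and the third -0.46, and both were called (adjusted p = 0.000423 and 0.00743).

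Between chronic libraries with and without MEK inhibition 1 of the 7 genes, Rc3h1, was called (14.3%), close to the share of all genes tested, 17.6% (9.93% higher, 7.65% lower). The count was 0 without the first MEK-inhibited library and 2 without the third chronic one. Libraries did not overlap for 2 of the 7, Zc3h12d and Rc3h1, against 32.2% of all genes. The median change over the 7 genes was 0.16, beside 0.04 over all genes. Between MEK-inhibited and acute libraries 4 of 7 genes were called (57.1%), Zfp36 and Zfp36l1 higher and Zc3h12a and Zc3h12d lower. The background there was 25.8% (14.4% higher, 11.5% lower), and libraries did not overlap for 5 of the 7 genes against 42.0% of all genes. The median change was -0.01 over the 7 genes and 0.00 over all genes tested. Under library totals 5 of the 7 were called: Zfp36 was lost (0.14), and Rc3h1 (-0.39) and Rc3h2 (-0.46) were called lower.

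**Figure D2:**
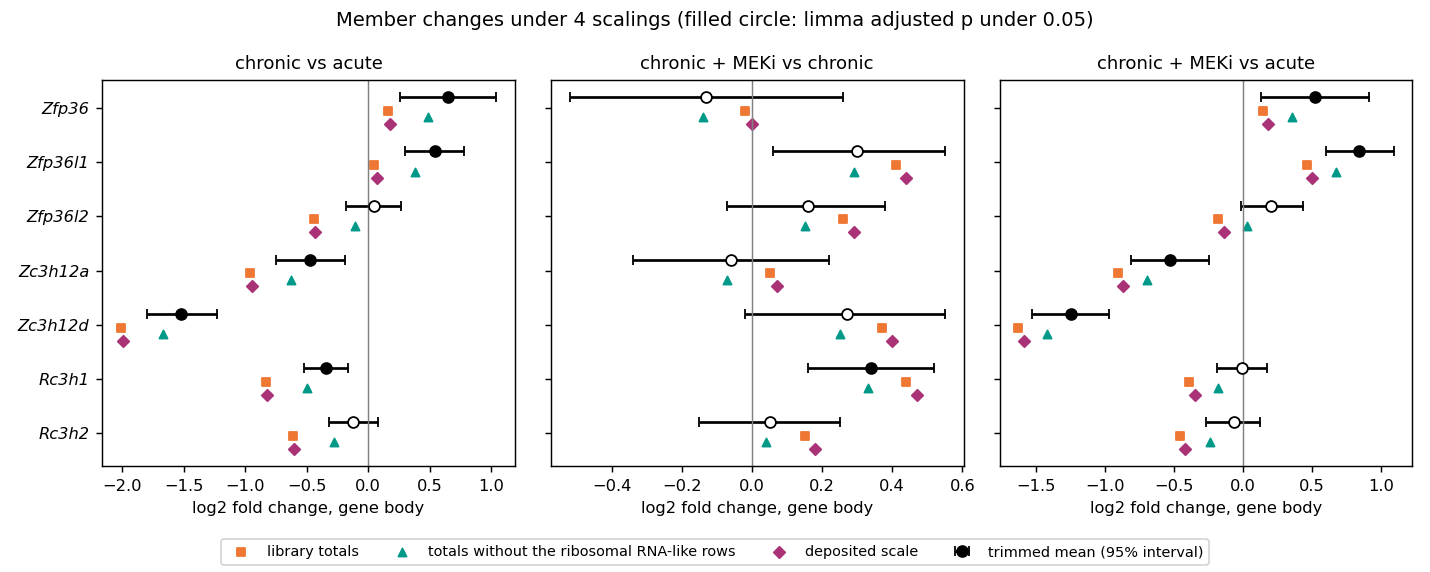
Log2 fold change of gene-body signal for the 7 genes in the 3 comparisons, as circles with the 95% interval of the limma fit (filled where the adjusted p is under 0.05), and as coloured markers under 3 other library scalings. In chronic against acute libraries the other scalings shift all 7 genes to the left, so that Zfp36l1 falls from 0.54 to 0.05 under library totals while Zc3h12d stays below -1.5 throughout.

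A ratio of 2 genes within a library does not depend on how libraries are scaled, so members of a family were also compared with each other (log2 of signal + 5). Such a ratio shows unequal change and not which gene moved. With 3 against 3 libraries the smallest two-sided exact permutation p is 0.1, so none of the 12 tests could pass 0.05, and after Benjamini-Hochberg adjustment over the 12 the smallest value was 0.133. The log2 ratio of Zfp36l1 to Zfp36l2 had a mean of -1.62 ± 0.01 (SD, n = 3) for acute libraries. It stood at -1.13 ± 0.08 under chronic stimulation and at -0.98 ± 0.10 with MEK inhibition, with no overlap between any of the groups (exact permutation p = 0.1 for each pair). The highest chronic ratio, -1.04, nearly met the lowest one with MEK inhibition, -1.03. The log2 ratio of Zfp36 to Zfp36l2 was -3.97 ± 0.16, -3.37 ± 0.22 and -3.65 ± 0.19. Here acute and MEK-inhibited libraries overlapped (exact permutation p = 0.2).

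The regnase ratio, Zc3h12a to Zc3h12d, was -0.73 ± 0.25 in acute, 0.31 ± 0.42 in chronic and -0.01 ± 0.08 in MEK-inhibited libraries. Every acute library was below every other one. Zc3h12d thus lost more signal than Zc3h12a in the same chronic libraries, by 1.05 on the log2 scale (exact permutation p = 0.1). The roquin ratio, Rc3h1 to Rc3h2, was 0.69 ± 0.12 in acute, 0.47 ± 0.10 in chronic and 0.76 ± 0.01 in MEK-inhibited libraries. The chronic libraries were below all others, while acute and MEK-inhibited libraries overlapped (exact permutation p = 0.6). The highest chronic ratio, 0.55, nearly met the lowest acute one, 0.56.

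**Figure D3:**
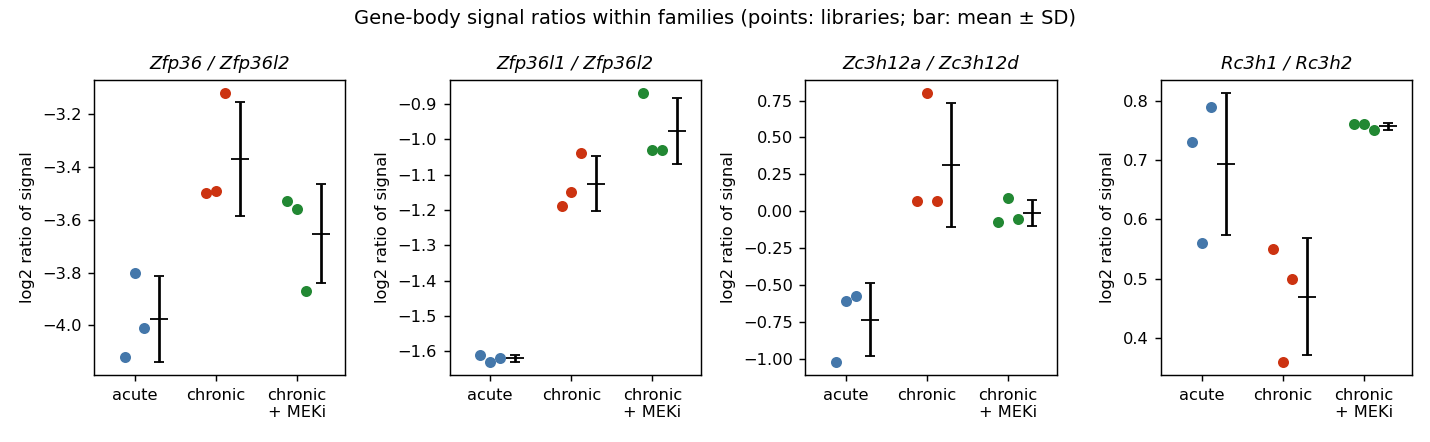
Log2 ratio of gene-body signal between 2 genes of a family in each library, 3 libraries per group, with the mean ± SD beside them; vertical axes do not start at 0. The Zfp36l1 to Zfp36l2 ratio steps up from -1.62 in acute libraries, and the Rc3h1 to Rc3h2 ratio is lowest in chronic libraries at 0.47.

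Pause-region signal, from RNA near the start of the gene, passed the filter for 6 of the 7 genes, all but Zfp36. Genes differed widely here. As a share of gene-body signal it was 19.9% ± 4.01 (SD, n = 3) for Zfp36l2 and 14.0% ± 2.96 for Zfp36l1 in acute libraries. It was between 1.76% and 3.89% for the regnases and roquins in the same libraries, and the median of 7413 genes tested in both regions was 6.09% ± 1.49. The limits of the regions are not given in the sources used here.

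No member was called in the pause region by limma, 0 of 6 in each comparison, against 10.7% of 7678 genes between chronic and acute, 3.0% between MEK-inhibited and chronic, and 5.95% between MEK-inhibited and acute libraries. In each comparison 1 of the 6 had an unadjusted p under 0.05, as did 23.0%, 13.9% and 18.9% of the 7678 genes in the same order, so these counts are near the background. Between chronic and acute libraries that gene was Zc3h12d. Its pause-region signal was 80.3, 67.7 and 40.5 in acute, 34.5, 5.84 and 11.1 in chronic, and 18.8, 15.9 and 54.6 in MEK-inhibited libraries. All chronic values were below all acute ones (log2 change -1.79, SE 0.681, adjusted p = 0.0969). Under library totals the change was -2.26 and called (adjusted p = 0.0189).

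In both comparisons with MEK-inhibited libraries it was Zfp36l1. Its pause-region signal was 613, 788 and 764 in acute, 876, 748 and 632 in chronic, and 1014, 1225 and 898 in MEK-inhibited libraries. The MEK-inhibited libraries were above all others, by 0.47 against chronic (SE 0.189, adjusted p = 0.22) and 0.53 against acute libraries (SE 0.189, adjusted p = 0.101). Under library totals the change of Zfp36l1 from acute to chronic stimulation turned to -0.55, which was not called (adjusted p = 0.106). Zfp36l2 had between 2387 and 3448 in all libraries, Rc3h1 between 70.8 and 185, Rc3h2 between 86.0 and 232, and Zc3h12a between 16.7 and 81.9, with overlapping groups for each of these genes. Under library totals Zfp36l2 was called between chronic and acute libraries in the pause region too (-0.89, adjusted p = 0.000628).

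The balance of pause region to gene body was tested with the same limma model. No gene was called in any comparison, 0.0% of 7413 each time, and 749, 394 and 591 genes had an unadjusted p under 0.05 in the same order of comparisons as above. Of the 6 members tested, 0 had an unadjusted p under 0.05 in any of them. The intervals were wide: for Zc3h12d the chronic change was -0.27 (95% interval -1.33 to 0.79), and for Zfp36l1 it was -0.48 (-1.13 to 0.16).

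**Figure D4:**
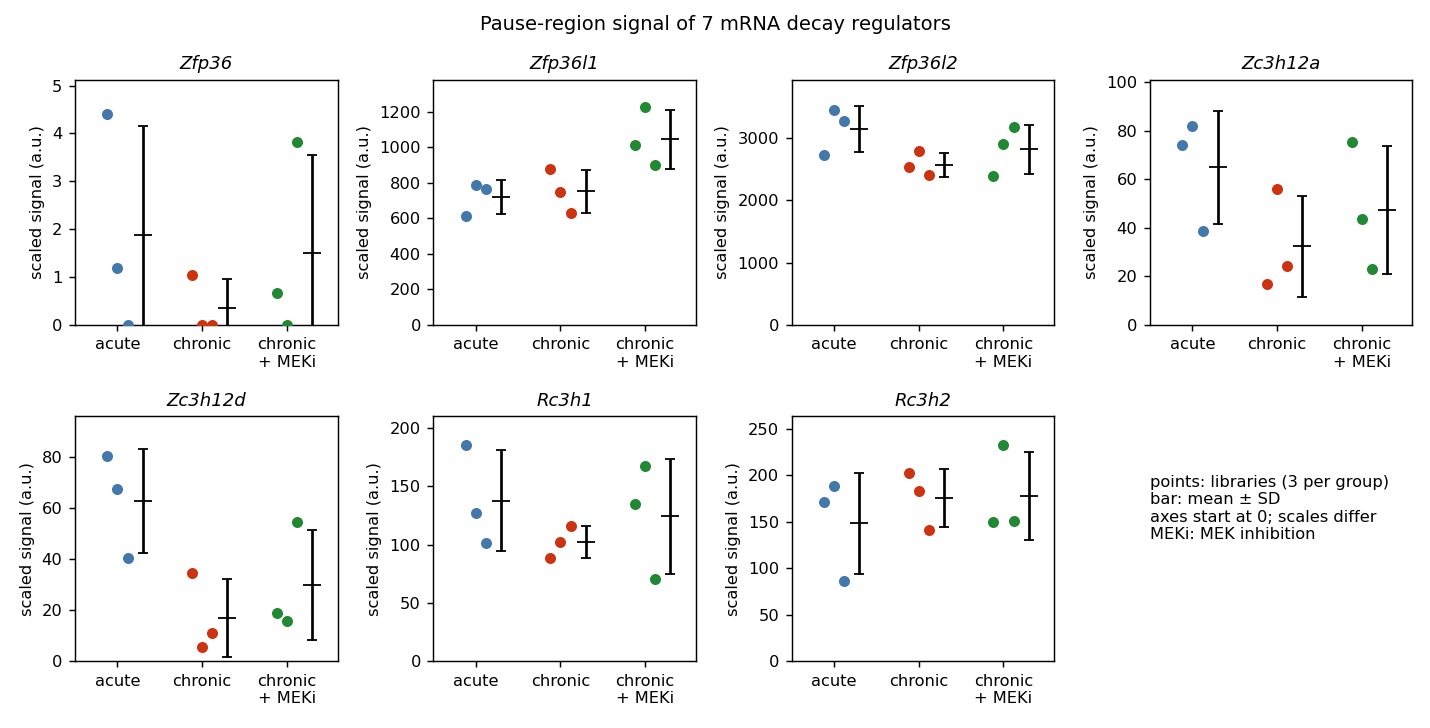
Scaled pause-region signal (arbitrary units, axes from 0) of the 7 genes in each library, 3 libraries per group, with the mean ± SD beside them. Zfp36l1 is highest in the 3 MEK-inhibited libraries, Zc3h12d is higher in the 3 acute than in the 3 chronic libraries, and Zfp36, whose transcript used here starts upstream of the RefSeq start, is near 0.

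The pause-region value of Zfp36 depended on which of its transcripts was read. The transcript with the largest gene-body signal, Zfp36-201, starts 1025 bases upstream of the RefSeq start, and its pause-region signal was between 0 and 4.41 in all libraries. The other, Zfp36-202, starts 27 bases from the RefSeq start. Its pause-region signal was 15.9, 62.3 and 33.6 in acute, 49.2, 44.4 and 45.3 in chronic, and 42.4, 66.5 and 32.5 in MEK-inhibited libraries, and the groups overlapped. That transcript was looked at after its values were seen. In the gene body both transcripts gave a log2 change of 0.65 from acute to chronic libraries. For the other 5 genes with a RefSeq promoter the transcript used began 0 to 41 bases from the RefSeq start.

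The members did not vary as 1 group across the 9 libraries. Pearson correlations of log2 gene-body signal, given as a description since libraries share their groups and scaling, were 0.82 between Zfp36 and Zfp36l1, 0.78 between the regnases, and 0.51 between the roquins. Zfp36l1 and Zc3h12d ran in opposite directions, at -0.77. Zfp36l2 showed little relation to Rc3h1 (0.01) or Rc3h2 (0.06).

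The genes whose gene-body pattern was most like each member were found over all 9 libraries. Zfp36 was closest to Tob2 (r = 0.972), which encodes an adaptor of the CCR4-NOT deadenylase, then to Sema4c (0.969) and Rpl29 (0.962). Zfp36l1 was closest to Nelfe (0.989), a subunit of the negative elongation factor, with Hist2h3c2 (0.988) and Ptma (0.985). Zfp36l2 was closest to Socs1 (0.961), an inhibitor of cytokine signalling, with Hist1h3d (0.945) and Zbtb45 (0.94). For Zc3h12a the closest genes were Tes (0.97), Rnf145 (0.966) and Larp1 (0.959). For Zc3h12d they were Lyst (0.992), a regulator of lysosome and granule traffic, Arhgap30 (0.984) and Rbm27 (0.982). Lyst went from 6700 in acute to 2760 in chronic and 3290 in MEK-inhibited libraries. For Rc3h1 they were Tlk1 (0.982), Ggt1 (0.98) and Maco1 (0.975), and Tlk1 went from 7970 to 5750 and back to 7800. For Rc3h2 they were Rab7 (0.959), Lcor (0.951) and Cs (0.95).

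The machinery that the members recruit changed in both directions. For this list and those below, the background was the share of all genes tested that was called. It was 18.0% higher and 15.9% lower in chronic against acute libraries, and 9.93% and 7.65% in MEK-inhibited against chronic ones. In MEK-inhibited against acute libraries it was 14.4% and 11.5%. In the CCR4-NOT complex with its TOB and BTG adaptors, 5 of 15 genes rose and 5 fell from acute to chronic libraries. The median change was 0.02. Under library totals, 2 rose and 10 fell. The 3 largest changes were those of adaptors. Tob1 went from 97.6 ± 34.5 (SD, n = 3) in acute to 270.0 ± 78.1 in chronic and 299 ± 34.9 in MEK-inhibited libraries (chronic change 1.44, adjusted p = 0.00126), and Btg2 from 672 ± 161 to 1593 ± 202 and 1503 ± 249 (1.26, adjusted p = 2.31e-05). Btg1, the related adaptor, ran the other way, from 6841 ± 339 to 3042 ± 644 and 2480 ± 369 (-1.19, adjusted p = 3.98e-06). Cnot4, a ubiquitin ligase of the complex, fell by 0.53 on the log2 scale (adjusted p = 0.000806).

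Under MEK inhibition 1 of the 15 was called against its chronic level, the deadenylase gene Cnot6l (by limma; 4 of the 15 had an unadjusted p under 0.05). It was at 8277 ± 1030 in chronic and 4838 ± 377 in MEK-inhibited libraries (-0.77, adjusted p = 1.84e-05), beside 4625 ± 147 in acute ones. Between MEK-inhibited and acute libraries 5 of the 15 rose and 4 fell (median -0.04; 3 rose without the first acute library and 2 fell without the second MEK-inhibited one). Tob1 (1.61) and Btg2 (1.17) led the rises, and Btg1 (-1.47) and Cnot4 (-0.39) the falls. Under library totals, 2 rose and 8 fell.

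Of 12 decapping and 5′ to 3′ decay genes, 0 rose (0 at an unadjusted p too) and 5 fell from acute to chronic libraries by limma (median -0.15), a count of falls that was 11 under library totals and 2 with no filter on low values. Over all genes tested, 18.0% rose and 15.9% fell. Ddx6, an RNA helicase that joins CCR4-NOT to decapping, went from 12010 ± 352 to 8456 ± 292 (-0.51, adjusted p = 7.33e-05). Dcp1b, a decapping cofactor, changed by -0.50 (adjusted p = 0.00388). None of the 12 was called by limma between MEK-inhibited and chronic libraries (median 0.11), where 2 had an unadjusted p under 0.05. Of all genes tested, 17.6% were called there and 28.7% had an unadjusted p under 0.05. Against acute libraries, 1 of the 12 rose and 5 fell under MEK inhibition (median -0.12; 2 fell without the third MEK-inhibited library and 3 without the first), and 0 rose and 7 fell under library totals. Among the falls were Pnrc1 (-0.42, adjusted p = 0.0499) and Dcp1b (-0.39, adjusted p = 0.0251). The rise, of the decapping scaffold Edc4 (0.51, adjusted p = 0.032), was lost under library totals (0.13, adjusted p = 0.603) and without any 1 of the acute or MEK-inhibited libraries, and the call of Pnrc1 was lost without the third acute library (-0.36, adjusted p = 0.141).

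Of 7 other RNA-binding proteins of AU-rich and related elements, 0 rose (0 at an unadjusted p too) and 4 fell from acute to chronic libraries by limma (median -0.26), with 6 falls under library totals and 1 rise without the second acute library. The background was 18.0% higher and 15.9% lower. Tia1, a stress granule protein, changed by -0.51 (adjusted p = 0.00187), and Pum2, a Pumilio protein, by -0.44 (adjusted p = 0.000228). None was called by limma between MEK-inhibited and chronic libraries (median 0.13), where 2 had an unadjusted p under 0.05. Against acute libraries 1 rose and 2 fell under MEK inhibition (median -0.20), and 0 rose and 6 fell under library totals (median -0.58). Khsrp (0.58, adjusted p = 0.00246; 0.20 and not called under library totals) was the rise, and Pum2 (-0.31, adjusted p = 0.00588) was among the falls.

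Some genes that act on the members also changed. Of 9 tested partners and regulators (Zc3h12b did not pass the filter), 4 rose and 2 fell from acute to chronic libraries (median 0.00), and 2 rose and 5 fell under library totals. The background under the main scaling was 18.0% higher and 15.9% lower. Arid5a, an RNA-binding protein that protects mRNAs from regnase-1, went from 19240 ± 2650 to 8790 ± 731 and to 14840 ± 671 under MEK inhibition. It fell in chronic libraries, with a log2 change of -1.12 (adjusted p = 5.82e-08), and was higher under MEK inhibition than in chronic libraries, by 0.76 (adjusted p = 1.82e-05). MEK-inhibited libraries were below acute ones, at -0.37 (adjusted p = 0.0097).

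Zc3h12c, the gene of regnase-3, had a low signal and rose in chronic libraries, from 81.3 ± 17 in acute to 243 ± 27.8 in chronic and 90.4 ± 3.85 in MEK-inhibited libraries (1.54, adjusted p = 0.00105, then -1.37, adjusted p = 0.00523). N4bp1, another cytokine-restraining ribonuclease and a substrate of MALT1, rose by 0.92 in chronic libraries (adjusted p = 5e-07). It was 0.61 above acute libraries under MEK inhibition (adjusted p = 9.95e-05), and 0.23 and not called under library totals. Between MEK-inhibited and chronic libraries 3 of the 9 rose and 3 fell (median 0.21), among the falls Malt1 itself (-0.37, adjusted p = 0.00729). Malt1 was -0.27 and not called under library totals. Against acute libraries 2 rose and 2 fell (median 0.03), and 1 rose and 4 fell under library totals (median -0.35). Mapkapk2, the kinase that phosphorylates tristetraprolin, had the largest rise (0.78, adjusted p = 7.34e-06).

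Of 16 genes whose mRNAs are described targets of these proteins, 14 were tested, with Il2 and Il3 below the filter. From acute to chronic libraries 8 rose and 3 fell (median 0.99, and 0.50 under library totals), beside a background of 18.0% higher and 15.9% lower. On leaving out 1 chronic library 13 were tested, and the median was 0.73 without the first, 0.65 without the second and 0.62 without the third. Under MEK inhibition 2 rose and 8 fell from the chronic level (median -0.63), and 1 rose without the first or the third MEK-inhibited library. Without the third chronic library 6 of 13 fell (median -0.31). Against acute libraries 5 rose and 3 fell (median 0.08, and -0.30 under library totals). Csf2, the gene of the growth factor GM-CSF, went from 253 ± 94.9 in acute to 6844 ± 1170 in chronic and 578 ± 83.7 in MEK-inhibited libraries (chronic change 4.78, adjusted p = 1.09e-10). Il10, an anti-inflammatory cytokine, went from 1021 ± 205 to 14540 ± 2650 and 724 ± 68.6, a change of -4.31 under MEK inhibition (adjusted p = 1.04e-11). Ccl3, a chemokine, was at 15.0 ± 16.6, 580.0 ± 138 and 9.42 ± 6.35. It passed the filter only through the chronic libraries, so its levels are given as a description, and it is among the 14 genes counted.

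The falls among the targets were in other genes. Ctla4, an inhibitory receptor, went from 3651 ± 463 to 976 ± 173 and 3941 ± 397 (-1.91, adjusted p = 2.59e-09, then 2.02, adjusted p = 3.81e-09). Nfkbiz, an NF-kB cofactor and regnase and roquin target, went from 6807 ± 258 to 2716 ± 134 and 3437 ± 213 (-1.32, adjusted p = 2.07e-09). Its rise under MEK inhibition, 0.34 (adjusted p = 0.0129), was lost without the first MEK-inhibited library (0.28, adjusted p = 0.11). Tnf, the best known target of tristetraprolin, was at 8103 ± 1430, 6915 ± 1010 and 5146 ± 408, with a change of -0.22 (adjusted p = 0.192) in chronic libraries and of -0.64 (adjusted p = 0.00109) between MEK-inhibited and acute ones. Ifng (2.46, adjusted p = 3.46e-08) and Tnfrsf4 (1.52, adjusted p = 1.05e-08) were the largest rises in that last comparison.

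**Figure D5:**
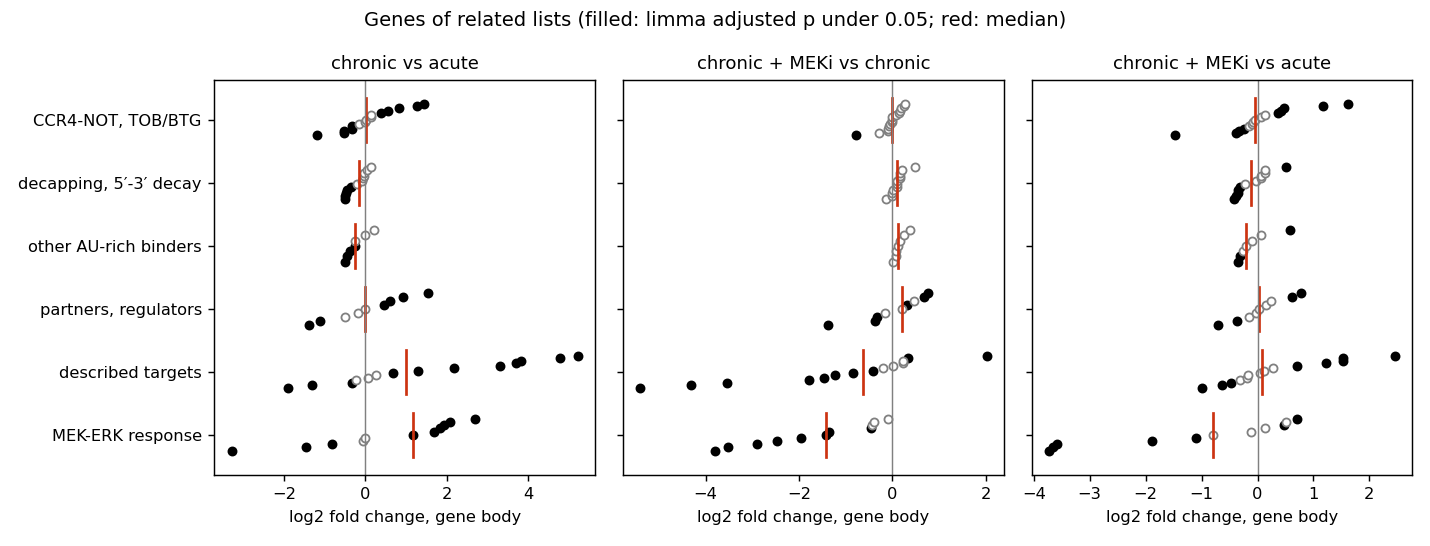
Log2 fold change of gene-body signal for each tested gene of 6 related lists in the 3 comparisons, with called genes (limma adjusted p under 0.05) filled and the median of each list in red. The described targets and the ERK response genes spread over several log2 units, with medians of 0.99 and 1.16 in chronic against acute libraries, while decapping genes and other AU-rich binders stay within 1 unit of 0.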

How the data were processed

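The authors deposited signal per transcript in 2 tables, for gene body and pause region as read from their names. Per the submitters' processing notes, FastQC 0.12.0, Trim Galore 0.6.10, STAR 2.7.0a, SAMtools 1.19.2, deepTools 0.1.9 and R 4.1.2 were used with build mm10. The counting program, region limits and use of strand are not given in the sources used here. Low values are whole multiples of a step per library (0.764 to 1.06) that is not a read, so the signal was not treated as counts, and no counting interval is given. Of 118482 rows, 117346 matched GENCODE M21 with their version and 383 without it, and 753 were left out. Only chromosomes 1 to 19 are covered.

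Library scale factors came from the trimmed mean of log ratios, without weights (trimming 30% of the ratios and 5% of the levels), and limma 3.58.1 in R 4.3.3 was fitted to log2(signal + 5) of the 9 libraries, 3 per group, with trend and robust moderation. Folds of weak genes are understated on that scale. P-values were adjusted by Benjamini and Hochberg over all genes tested, with a threshold of 0.05. Pausing was the per-library difference of pause region and gene body on this scale. Scripts were tested on simulated data. Joins and permutation tests used Python 3.11.15, pandas 2.3.3 and scipy 1.17.1.

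Members and lists were chosen with earlier results of these data known, so no list is independent support. All members were named, and from each list the 2 largest called rises and falls per comparison (for the ERK genes, 2 falls under MEK inhibition). Some genes the rule takes are not reported here. For each member the 3 genes with the highest Pearson r were named, leaving out Gm, Rik and LOC symbols and overlapping genes. Alternatives were other scalings, pseudocounts, filters and transcript choices, a fit without moderation, a fit to the groups compared, a replicate block, and leaving out each library.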

Additional observations from a re-analysis of the deposited data

How the results depend on the processing

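Direction and call stayed the same for 126 of 147 gene-body alternatives between chronic and acute libraries, 129 of 147 between MEK-inhibited and chronic ones and 128 of 147 between MEK-inhibited and acute ones. Between chronic and acute libraries 2875 genes were called higher and 2528 lower, against 1096 and 6846 under library totals, 2096 and 3759 with totals that leave out the ribosomal RNA-like rows, and 1134 and 6713 on the deposited scale. Between MEK-inhibited and chronic libraries the split was 1583 and 1219, against 1769 and 741 under totals and 1979 and 721 on the deposited scale. Between MEK-inhibited and acute ones it was 2291 and 1827, against 955 and 4965, 1572 and 3151, and 1023 and 4542 under the same 3 scalings. With no filter, 1637 genes in place of 2802 were called between MEK-inhibited and chronic and 2642 in place of 4118 between MEK-inhibited and acute libraries.

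Members called in the gene body between chronic and acute libraries were 5 under library totals, all of them falls, and 2 in place of 5 with no filter. Between MEK-inhibited and chronic libraries they were 2 in place of 1 under library totals and on the deposited scale, 0 with no filter and with rows summed per gene, and 0 to 2 on leaving out 1 library: 0 without the first MEK-inhibited and 2 without the third chronic one, where Zfp36l1 was called too (0.41, adjusted p = 0.0136). In the pause region 2 were called between chronic and acute libraries under library totals, and 1 between MEK-inhibited and acute libraries with a filter of 200, in place of 0.

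The following signs turned, mostly of values near 0. Between chronic and acute libraries Zfp36l2 was at -0.44 under totals, -0.11 without the ribosomal RNA-like rows and -0.43 on the deposited scale, and from -0.05 to 0.18 on leaving out 1 library. Between MEK-inhibited and chronic libraries Zfp36 was at 0.00 on the deposited scale (leaving out 1 library, -0.25 to 0.06), Zc3h12a at 0.05 under totals and 0.07 on the deposited scale (-0.13 to 0.06), and Rc3h2 at -0.02 with no filter and -0.01 with summed rows (-0.02 to 0.11). Between MEK-inhibited and acute libraries Zfp36l2 was at -0.18 under totals and -0.14 on the deposited scale, and Rc3h1 ranged from -0.10 to 0.01.

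In the pause region, Zfp36l1 between chronic and acute libraries was at -0.55 under totals and -0.02 on the deposited scale (-0.06 to 0.18), and Rc3h2 at -0.30 under totals (-0.05 to 0.47). Between MEK-inhibited and chronic libraries Zc3h12a was at -0.21 with summed rows, Rc3h1 ranged from -0.04 to 0.55 and Rc3h2 from -0.19 to 0.12. Between MEK-inhibited and acute libraries Rc3h2 was at -0.04 under totals (-0.05 to 0.48) and Rc3h1 ranged from -0.42 to 0.17. The cause was not tested.

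No pairing by replicate number was seen in the signal: deviations of same-numbered libraries correlated between -0.53 and 0.10, and 2 of 9 libraries correlated best with their own number. With 3 libraries per group this cannot show whether same-numbered libraries shared an animal or culture. With a replicate block, 5, 1 and 4 members were called in the gene body as without it, and 5497, 2956 and 4263 genes in all. Depth in reads is unknown, and the weak pause-region values limit what could be detected there.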
